A study of Bos taurus with 6 samples.

Results

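Vimentin (VIM, ENSBTAG00000018463), beta-actin (ACTB, ENSBTAG00000026199) and glyceraldehyde-3-phosphate dehydrogenase (GAPDH, ENSBTAG00000014731) were examined in RNA sequencing of 2 cell types sorted from bovine muscle. These are 3 of the 27607 gene identifiers in the deposited count table. The genes were chosen by identifier, as broadly expressed genes, with their read counts in both cell types already known, so that every difference between the cell types given for them is a description and carries no p-value. The table lists identifiers only. The 3 names came with the definition of this gene group, and none of the 27607 identifiers could be paired with a name through the gene table used here (37063 genes, 0 identifiers paired).

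Fibro-adipogenic progenitors (FAPs), the connective tissue cells of muscle that can become adipocytes, and satellite cells (SCs), its myogenic stem cells, came from semitendinosus muscle of Belgian Blue cattle. After a first 72 h of culture on collagen-coated flasks, cells lacking CD31 and CD45 were sorted, FAPs as CD29+/CD56- and SCs as CD29+/CD56+. Both were then grown for 72 h, seeded at 2000 cells per cm2 on collagen-coated flasks in Ham's F-10 with 20% fetal bovine serum, 5 ng/ml bFGF and an antibiotic and antifungal mixture. Each cell type was represented by 3 libraries with the letters A, B and C, and nothing in the labels says whether a letter stands for an animal or a culture, so that the spread between libraries may be partly technical. The age and sex of the animal behind a library are likewise not given. Totals lay between 22737901 and 37791193 counts in FAPs and between 19666738 and 30115337 in SCs. The defining markers of FAPs and SCs were not analysed here, for want of gene names, and neither were other reference genes, glycolytic enzymes or cytoskeletal genes.

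Vimentin is the type III intermediate filament protein of mesenchymal cells, and both fibroblast-like cells and proliferating myoblasts are known to make it. Beta-actin is the main non-muscle actin, which builds the cortical network, stress fibres and the leading edge of moving cells. GAPDH is a glycolytic enzyme that oxidises glyceraldehyde-3-phosphate. ACTB and GAPDH are widely used as reference genes, on the premise that their RNA takes a similar share of the total in the samples compared, and their level then sets the scale on which all others are read. In bulk RNA, a level is a share of the library, so that fewer cells of a type and less RNA per cell cannot be told apart.

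Whether these genes had the same level in FAPs and SCs depended on how the libraries were scaled, and no scaling brought all 3 to the same level at once. On counts scaled to a common library total (CPM), VIM and GAPDH were lower in FAPs by about the same proportion and ACTB was lower by less. After adjustment of the library sizes with edgeR's TMM factors, which set a trimmed mean of the gene-wise log ratios to zero, VIM and GAPDH were nearly level between the cell types and ACTB was higher in FAPs.

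VIM had 209815, 191062 and 120274 counts in FAPs A, B and C, and 226205, 169370 and 251774 in SCs A, B and C. On library totals these were 5552, 5616 and 5290 CPM in FAPs and 8023, 8612 and 8360 CPM in SCs. Every FAP library thus lay below every SC library, with means of 5486 ± 173 CPM (SD, n = 3) and 8332 ± 295 CPM (SD, n = 3), a 1.52-fold higher mean in SCs. With TMM factors the values became 6791, 6727 and 6301 CPM in FAPs and 6714, 7121 and 6923 CPM in SCs. The groups then overlapped, as FAPs A and B lay above SCs A. Their means were 6607 ± 267 CPM (SD, n = 3) in FAPs and 6919 ± 204 CPM (SD, n = 3) in SCs, and the fitted log2 fold change (log2-FC, FAPs minus SCs) was -0.067 with a standard error of 0.060. VIM was the most counted of the 3 genes, at position 11 by count in each FAP library and position 4 in each SC library.

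GAPDH behaved like VIM in the comparison of the cell types. It was counted 72650, 63943 and 39265 times in FAPs A, B and C, and 81581, 53281 and 80169 times in SCs A, B and C. On library totals it stood at 1922, 1880 and 1727 CPM in FAPs and at 2894, 2709 and 2662 CPM in SCs. The groups did not overlap, and the SC mean of 2755 ± 122 CPM (SD, n = 3) was 1.49-fold the FAP mean of 1843 ± 103 CPM (SD, n = 3). TMM factors gave 2352, 2251 and 2057 CPM in FAPs and 2421, 2240 and 2204 CPM in SCs. On that scale the groups overlapped, the means were 2220 ± 150 and 2289 ± 116 CPM (SD, n = 3 each), and the log2-FC was -0.044 with a standard error of 0.068.

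ACTB gave the opposite picture in the overlap of the groups, though its mean on library totals was lower in FAPs as well. Its counts were 138392, 125385 and 77548 in FAPs A, B and C, and 130461, 82136 and 109954 in SCs A, B and C. On library totals it was at 3662, 3686 and 3411 CPM in FAPs and at 4627, 4176 and 3651 CPM in SCs. SCs C lay below FAPs A and B, so that the groups overlapped, and the means were 3586 ± 153 and 4152 ± 489 CPM (SD, n = 3 each). With TMM factors ACTB was at 4480, 4415 and 4063 CPM in FAPs and at 3872, 3453 and 3023 CPM in SCs. Every FAP library was then above every SC library. The means were 4319 ± 224 and 3450 ± 424 CPM (SD, n = 3 each), a 1.25-fold higher mean in FAPs, and the log2-FC was 0.32 with a standard error of 0.085.

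**Figure D1:**
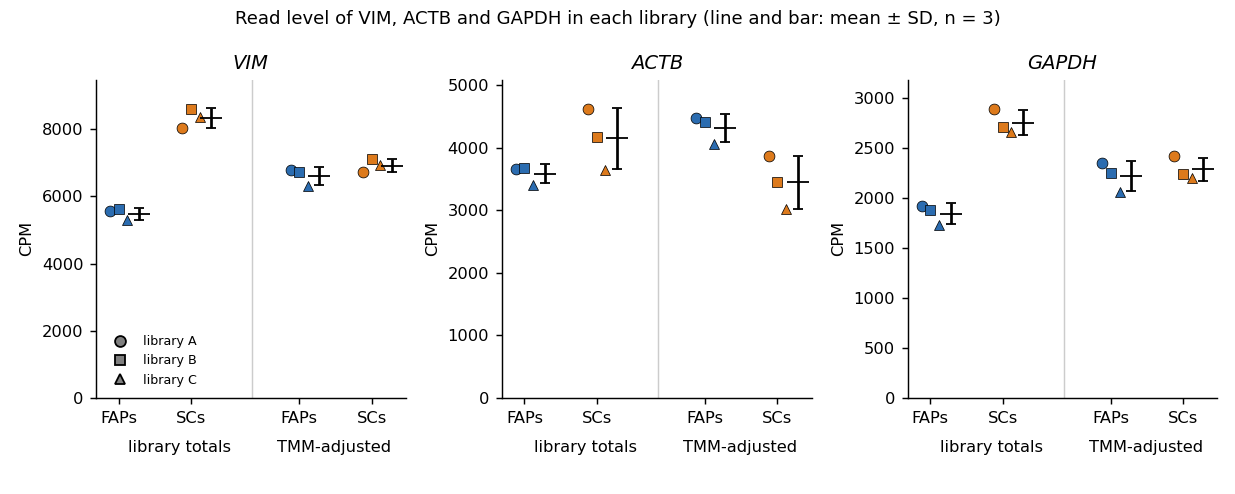
CPM of VIM, ACTB and GAPDH in each library (vertical axis, from 0), on library totals at the left of each panel and on TMM-adjusted library sizes at the right, with FAPs in blue and SCs in orange, symbols for the letters, and a line and bar for mean ± SD (n = 3). VIM and GAPDH are separated on library totals and overlap with TMM factors, whereas ACTB overlaps on library totals and is separated with TMM factors.

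Separation of the groups was thus seen in 2 of the 3 genes on library totals and in 1 of 3 with TMM factors. Among the 14039 genes that passed the filter on low counts, 85.8% had no overlap on library totals and 74.5% had none with TMM factors. The cutoffs of the study, an absolute log2-FC above 1 with a false discovery rate below 0.05, called 28.1% of tested genes with TMM factors and 36.2% with library totals, by the quasi-likelihood test of edgeR after Benjamini-Hochberg adjustment, and 0 of the 3 genes under either scaling. Because the genes were picked with this contrast known, nothing is read from these counts.

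The step from library totals to TMM factors adds the same amount to the log2-FC of every gene, here 0.54, and leaves the differences between genes as they were. The log2-FC on library totals were -0.60 for VIM (standard error 0.058), -0.58 for GAPDH (standard error 0.064) and -0.21 for ACTB (standard error 0.080). The offset follows from the factors, which averaged 0.831 in FAPs and 1.20 in SCs. Composition of the libraries differed alongside, as the 10 most counted genes took between 22.5% and 24.0% of the counts in FAPs and between 7.73% and 8.02% in SCs. VIM, ACTB and GAPDH together took between 1.04% and 1.12% of a FAP library and between 1.47% and 1.55% of an SC library.

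Leaving the most counted genes out of the library totals moved the 3 genes part of the way. With the 10 most counted genes of each library removed from its total, VIM was at a log2-FC of -0.34, GAPDH at -0.32 and ACTB at 0.052. VIM was itself among those 10 in each SC library, at position 4, but not in the FAP libraries, at position 11. All 3 genes were among the 100 most counted in every library. With 100 removed the values were -0.27 for VIM, -0.25 for GAPDH and 0.12 for ACTB, and with 1000 removed they were -0.18, -0.15 and 0.22. These last values were close to those with upper-quartile factors, at -0.17 for VIM, -0.15 for GAPDH and 0.22 for ACTB. The removal of 100 and of 1000 genes was added after the data had been seen.

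Which scaling made the genes agree best depended on the measure of agreement. By the mean absolute log2-FC over the 3 genes, library totals gave 0.46, TMM factors 0.145 and the RLE factors of DESeq2 and edgeR 0.142. The smallest value that any shift common to the 3 genes could give was 0.130, so that TMM and RLE factors were near that limit. By the largest absolute log2-FC, however, TMM factors gave 0.32, set by ACTB, and upper-quartile factors gave 0.22, where the limit was 0.196. With TMM factors 2 of the 3 genes lay within 0.1 of zero on the log2 scale, and with library totals 0 of 3 did. VIM and GAPDH were therefore within 0.1 of equal levels with TMM, TMMwsp or RLE factors. Among the scalings not set to the level of these genes, ACTB came nearest to agreement with the totals freed of the 10 most counted genes. Those totals leave out VIM in SCs but not in FAPs.

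**Figure D2:**
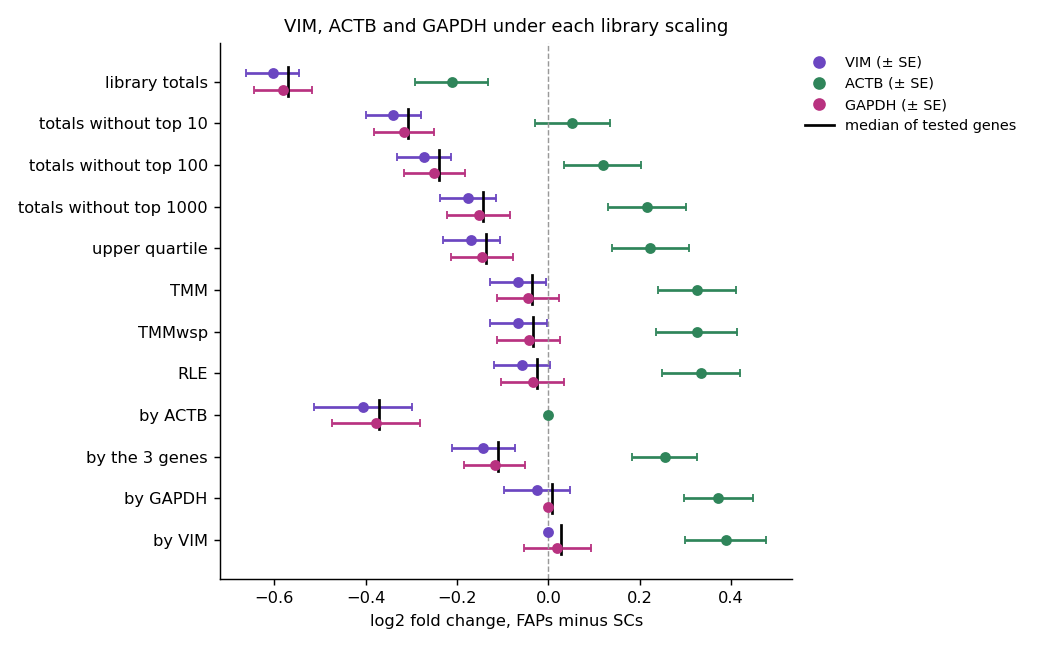
Fitted log2-FC (horizontal axis, FAPs minus SCs, bars ± standard error) of VIM, ACTB and GAPDH under 12 library scalings, with the median of the 14039 tested genes as a black line. VIM and GAPDH lie beside the median under each scaling shown, ACTB lies to its right by about the same distance, and a gene used as its own scale is at 0 by construction.

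As the step between the scalings adds the same amount to every gene, positions set against the other genes could hardly change with it. Relative to the median log2-FC of the tested genes, VIM was at -0.032, GAPDH at -0.0089 and ACTB at 0.36 with TMM factors, and at -0.032, -0.0095 and 0.36 with library totals. In rank order, 48.2% of tested genes had a lower log2-FC than VIM, 49.5% had a lower one than GAPDH and 69.2% had a lower one than ACTB. The near agreement of VIM and GAPDH under TMM factors is thus the same observation as their place in the middle of all tested genes, since these factors centre the bulk of the genes.

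The 3 genes were also set beside the 55 tested genes with a mean of at least 1000 CPM (TMM factors) in each cell type, a class defined after the data had been seen. A class cut on the mean over all libraries was not used, because 23 of its 82 genes were below 1000 CPM in SCs and 4 were below it in FAPs, so that the difference between the cell types helps to decide which genes enter. Asking for the level in both cell types keeps such genes out. A gene with a large difference is left out only where its lower level is below 1000 CPM. The most counted gene, ENSBTAG00000021466, stays in at a mean of 46944 CPM and a log2-FC of 3.20 with TMM factors. In the 55 genes, which include VIM, ACTB and GAPDH, the median log2-FC was 0.15 with TMM factors and -0.38 with library totals. VIM and GAPDH lay below this median and ACTB lay above it, with 20.0%, 25.5% and 63.6% of the 55 genes at a lower log2-FC. With TMM factors 5 of these genes were nearer to 0 than GAPDH, 10 were nearer than VIM and 32 were nearer than ACTB.

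Ratios of counts within a library are free of any scaling. The ratio of VIM to GAPDH counts was 2.89, 2.99 and 3.06 in FAPs A, B and C and 2.77, 3.18 and 3.14 in SCs A, B and C. The groups overlapped, with means of 2.98 ± 0.088 and 3.03 ± 0.22 (SD, n = 3 each), and the mean log2 ratio differed by -0.022 (standard error 0.068). As transcript lengths were not at hand, such a ratio does not compare the abundance of the 2 RNAs and serves only to compare libraries.

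Ratios with ACTB differed between the cell types. ACTB to GAPDH was 1.90, 1.96 and 1.97 in FAPs A, B and C and 1.60, 1.54 and 1.37 in SCs A, B and C. Every FAP library was above every SC library, and the mean log2 ratio was 0.38 higher in FAPs (standard error 0.069). VIM to ACTB was 1.52, 1.52 and 1.55 in FAPs and 1.73, 2.06 and 2.29 in SCs, and the mean log2 ratio was lower in FAPs, at -0.40 (standard error 0.12). A factor common to a library cannot remove either difference.

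**Figure D3:**
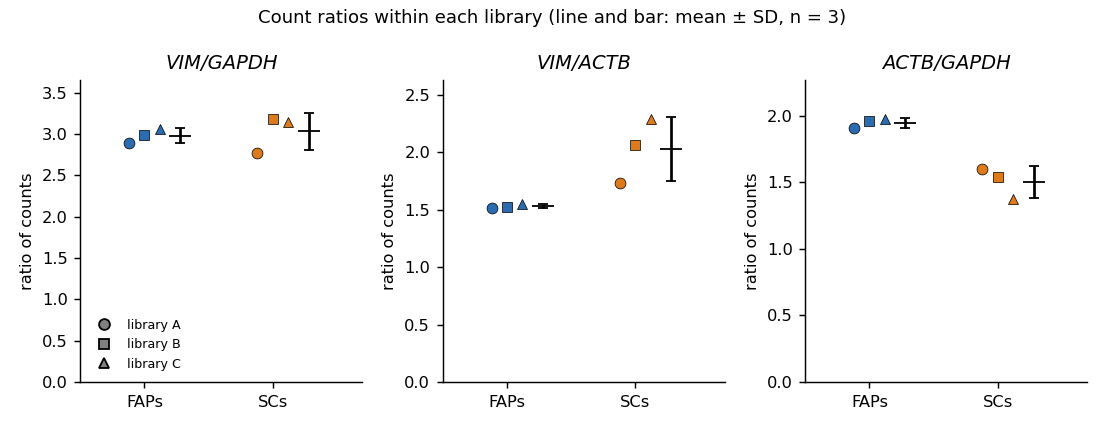
Ratio of counts between pairs of the genes (vertical axis, from 0) in each library, with FAPs in blue, SCs in orange, symbols for the letters, and a line and bar for mean ± SD (n = 3). VIM/GAPDH overlaps between the cell types, whereas VIM/ACTB is lower and ACTB/GAPDH higher in each FAP library than in each SC library.

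The genes also differed in how evenly they were counted among replicates. Counting error was small at these depths, at 0.20% to 0.29% of the value for VIM, 0.27% to 0.36% for ACTB and 0.35% to 0.50% for GAPDH. With TMM factors the coefficient of variation over 3 libraries was 4.04% in FAPs and 2.94% in SCs for VIM, and 6.75% and 5.08% for GAPDH. For ACTB it was 5.20% in FAPs and 12.3% in SCs, where the lowest library (C) had 3023 CPM and the highest (A) had 3872 CPM. On library totals the values in FAPs were smaller, at 3.16% for VIM, 5.58% for GAPDH and 4.25% for ACTB. Those in SCs were then 3.55%, 4.44% and 11.8% in the same order of genes.

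Among the same 55 genes, the SD of log2 CPM over the SC libraries was smaller than that of ACTB in 89.1%, smaller than that of GAPDH in 52.7% and smaller than that of VIM in 25.5%. In FAPs a smaller SD than that of GAPDH was found in 81.8% of the 55 genes, than that of ACTB in 72.7% and than that of VIM in 58.2%. VIM was the most even of the 3 genes in both cell types. The mean SD of its log2 ratios to the other 2 genes over 6 libraries was 0.164, against 0.147 for GAPDH and 0.236 for ACTB. Over all libraries, with the difference between the cell types included, GAPDH thus had the most stable ratios and ACTB the least stable. Within FAPs the order was another, with an SD of 0.017 for VIM/ACTB, 0.028 for ACTB/GAPDH and 0.043 for VIM/GAPDH. Within SCs these were 0.20, 0.12 and 0.11.

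Library C was the lowest of its cell type and library A the highest for ACTB and GAPDH with TMM factors, in FAPs as in SCs. In VIM library C was the lowest in FAPs and library A was the lowest in SCs. The effect of the letter, which the choice of the genes did not use, was tested with cell type and letter as terms. In that model ACTB was -0.25 on the log2 scale in C against A and -0.094 in B against A, and GAPDH was -0.16 and -0.087. The adjusted p was 0.144 for ACTB, 0.363 for GAPDH and 0.869 for VIM (quasi-likelihood test of edgeR, Benjamini-Hochberg adjustment over 14039 genes), so that 0 of the 3 genes passed the 0.05 threshold, which 2.66% of tested genes did. For ACTB the adjusted p was 0.207 with library totals and 0.0552 with limma-voom. Each letter has 1 library of each cell type.

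Each gene was also read as if it alone set the scale. The factor that would make VIM equal in all libraries was 0.822, 0.831 and 0.783 in FAPs A, B and C, and 1.19, 1.27 and 1.24 in SCs A, B and C. The same libraries had TMM factors of 0.818 (A), 0.835 (B) and 0.840 (C) in FAPs and of 1.20 (A), 1.21 (B) and 1.21 (C) in SCs. Over the 6 libraries, the VIM factors differed from the TMM factors by 0.039 on average on the log2 scale, those of GAPDH by 0.056 and those of ACTB by 0.168. For ACTB the factors came to 0.952, 0.958 and 0.886 in FAPs, and to 1.20, 1.09 and 0.949 in SCs. SCs C thus had the largest departure, 0.35 on the log2 scale, and its ACTB factor was within the range of the FAP libraries. On library totals, where each factor is 1, the distance to TMM was 0.268 on average, above that of each of the 3 genes.

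**Figure D4:**
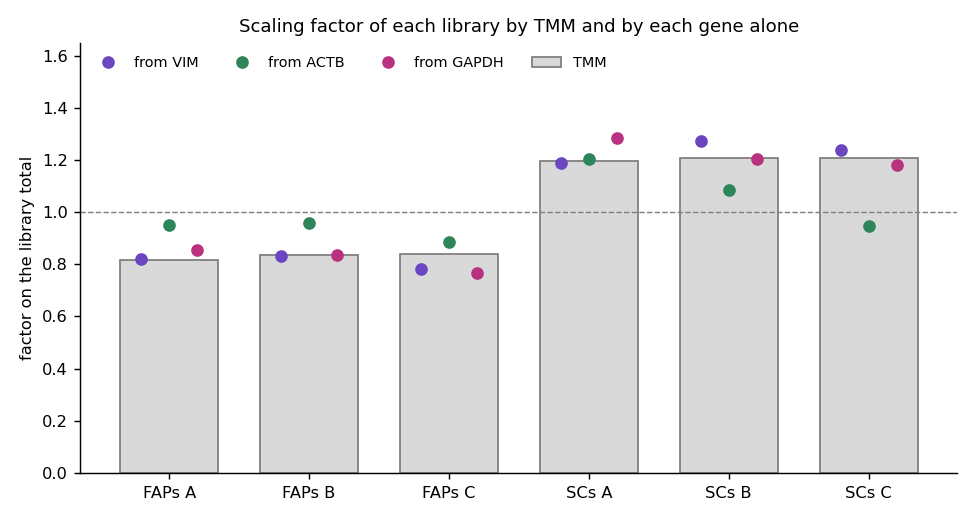
Factor on the library total (vertical axis, from 0) for each of the 6 libraries, by TMM (bars) and as the level of VIM, ACTB or GAPDH alone would set it (points), each series with a geometric mean of 1. VIM and GAPDH points lie near the bars, between 0.767 and 1.29, and the ACTB points lie above the bars in FAPs and below them in SCs B and C, at 1.09 and 0.949.

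The choice of the reference gene carried over to the rest of the table. TMM factors led to 3943 called genes, with 51.6% of them higher in FAPs. Scaled by GAPDH alone there were 3968 called genes, 53.8% of them higher in FAPs, and 3868 were shared with the TMM calls. VIM alone gave 3957 called genes with 54.8% higher in FAPs and 3824 shared. ACTB alone gave 4319 called genes with 34.9% higher in FAPs and 3414 shared. The geometric mean of the 3 genes gave 3953 called genes with 47.9% higher in FAPs and 3802 shared. Scaling by ACTB thus lay between TMM factors and library totals, which gave 5080 called genes with 25.3% higher in FAPs and 3194 shared.

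The rank of these genes among the most variable ones changed with the scaling as well. Ordered by the variance of CPM over the 6 libraries, VIM held position 12 on library totals and position 106 with TMM factors. GAPDH moved from position 49 to position 311 in the same step, and ACTB from position 57 to position 46. Of the summed variance of the 500 most variable genes, VIM made up 0.133% on library totals and 0.00240% with TMM factors.

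Many genes lay close to VIM and GAPDH across the libraries, which does not require that they rise and fall with them. Likeness was taken as the root mean square difference in log2 CPM with TMM factors, each gene centred on its mean over the 6 libraries, among 1885 genes with a mean of at least 100 CPM. Within a difference of 0.1 there were 256 genes for VIM (13.6%), 171 for GAPDH (9.07%) and 67 for ACTB (3.55%). VIM and GAPDH were themselves 0.069 apart, while ACTB was 0.23 from VIM and 0.20 from GAPDH. The gene nearest to VIM was ENSBTAG00000018374, at a difference of 0.027, with 237 ± 11.4 CPM in FAPs and 251 ± 2.41 CPM in SCs (SD, n = 3 each). Its order of libraries was that of VIM in FAPs, but in SCs this gene was lowest in library C and VIM in library A. Nearest to GAPDH was ENSBTAG00000008570, at 0.019, with 473 ± 26.0 CPM in FAPs and 478 ± 28.0 CPM in SCs (SD, n = 3 each). The gene nearest to ACTB was ENSBTAG00000004688, at 0.025. Its level was 348, 340 and 314 CPM in FAPs A, B and C and 304, 258 and 238 CPM in SCs A, B and C. The order of libraries was that of ACTB in both cell types, which its choice by likeness to ACTB favours. Names of these genes are not given by the files.

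How reads that map to several places were counted is not stated in the sources used here. ACTB and GAPDH are known to have processed pseudogenes, and ACTB a close relative in gamma-actin, so that their counts are less certain than their counting error, and the part of this in the differences above was not tested.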

How the data were processed

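Poly(A) RNA of 3 FAP and 3 SC libraries was prepared with a stranded kit and sequenced as single-end reads. Alignment was done by the authors with STAR 2.7 against bosTau9, and featureCounts gave the reads on each Ensembl gene. Raw counts were deposited, without normalization or gene filtering, and the table held 0 further columns of samples. Library totals lay between 19666738 and 37791193 counts, and 3 counts correspond to 0.0794 to 0.153 CPM, which covers counting error only.

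Here, filterByExpr with a minimum count of 10 kept 14039 of 27607 genes, which were scaled with TMM factors on library totals and fitted with the quasi-likelihood model of edgeR 4.0.16 (R 4.3.3). The model held cell type alone, and the prior count was 0.125. DESeq2 1.42.0 and limma 3.58.1 with voom were alternatives, beside other scalings, filters, thinned counts, a replicate block and the omission of single libraries. The study's methods name limma. Standard errors were taken from the fitted log2-FC and its F statistic, and those of count ratios from the SD over libraries. Scripts were tested on simulated data drawn from the SC levels, which did not test the choice of scaling. The genes, the scalings and the rule for similar genes (the nearest gene of at least 100 CPM for each) were chosen with earlier results of these data known. Levels of different genes were not compared, as transcript lengths were not at hand. Sequences and coordinates were not used here, the gene table being of another assembly (ARS-UCD2.0).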

Additional observations from a re-analysis of the deposited data

How the results depend on the processing

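The tests of the replicate letter for the 3 genes kept their call at 0.05 with library totals and with limma-voom, the only alternatives run for them. Which genes were called between the cell types did change with the scaling. A value was counted as moved when it changed by more than the SD between replicates, and a number of genes when it changed by over 1.5 times. The log2-FC of VIM, GAPDH and ACTB did not move under RLE or TMMwsp factors, DESeq2, limma-voom, either other filter, thinning, a prior count of 2 or the replicate block. Leaving out each library in turn gave -0.090 to -0.015 for VIM, 0.24 to 0.41 for ACTB and -0.068 to 0.027 for GAPDH. Without FAPs C, VIM was at -0.015 and counted as moved, whereas ACTB and GAPDH did not move under any of these omissions. GAPDH changed sign without FAPs C, which is not a change of call. Library totals gave -0.60 for VIM, -0.21 for ACTB, -0.58 for GAPDH and 0.465 for the mean absolute log2-FC, with 1286 called genes on the FAP side and 3794 on the SC side, against 2035 and 1908 with TMM factors. Totals without the 3 genes gave -0.61, -0.22, -0.59 and 0.471, with 1281 and 3834 genes. Totals without the 10 most counted genes gave -0.34, 0.052 and -0.32 in the same order of genes. For totals without 100 most counted genes, added later, the values were -0.27, 0.12 and -0.25, and without 1000 VIM was at -0.18 and GAPDH at -0.15. Upper-quartile factors gave -0.17 for VIM and -0.15 for GAPDH. Scaled by ACTB, VIM was at -0.41, GAPDH at -0.38 and ACTB at 0, with a mean absolute value of 0.262. Scaled by VIM, VIM was at 0, and scaled by the 3 genes VIM was at -0.14. These shifts follow from the factors. Without a fold change cutoff the number of called genes was 10001, with 4871 on the FAP side and 5130 on the SC side. A minimum of 10 CPM for similar genes, which compares more genes, gave 1172 within 0.1 of VIM, 318 of ACTB and 818 of GAPDH, and the nearest genes were then others.

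Same-lettered libraries deviated together across genes with a correlation of 0.199 (A), 0.0134 (B) and 0.167 (C). These values do not decide whether same-lettered libraries were pairs, and the main model held cell type alone. With the replicate block 3942 genes were called, and the log2-FC was -0.067 for VIM, 0.33 for ACTB and -0.045 for GAPDH. Depth was no limit for genes counted at least 39265 times in each library.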
